A study of Danio rerio with 6 samples.

Results

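Solute carrier (SLC) genes encode membrane proteins that move nutrients, ions, metals and metabolites across cell and organelle membranes. They were followed here in whole zebrafish embryos whose Nodal signalling was blocked from an earlier or a later stage. Members were all genes whose current zebrafish symbol has the form slc, a family number, the letter a and a member number, with slc16a3b left out by the same rule. This gave 185 of the 13274 genes in the authors' deposited table. They belong to 47 SLC families, which were grouped by substrate into 16 classes from the family number alone. A further 224 protein-coding zebrafish symbols of this form were not analysed here, and every record in the table reaches a mean of at least 101 in some group. Of the members, 2 take their symbol from a neighbouring or partner gene and are not carriers themselves, slc4a1ap and slc7a6os.

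All embryos were exposed to SB505124, a small molecule that inhibits ALK4, ALK5 and ALK7, type I receptors for Nodal, activin and TGF-beta ligands. Treatment started at sphere stage, before gastrulation, or at 30% epiboly, when the blastoderm has begun to spread over the yolk. Embryos of each onset were frozen at shield stage (early gastrula), at tailbud stage (end of gastrulation) or with 7 somites, and 30 to 60 embryos made up a sample. The labels list 1 sample for each of the 6 groups and no strain. They name no untreated embryos, so every onset comparison sets the earlier treatment (sphere-treated) against the later one (epiboly-treated).

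For each gene and group the table gives an upper-quartile normalized (UQN) mean, a score on a normalized scale that is not a read count, and its standard error (SE). Since the SEs take only values possible for 3 whole numbers, n = 3 was assumed for every mean. Whether they came from different clutches is not stated in the sources used here. The p-values therefore reflect only their spread, which may be technical. All values below with ± are UQN means ± SE. Where a pair of means is given for a stage, the epiboly-treated mean comes first, and a rise or fall within a stage runs from it to the sphere-treated mean. An onset log2 ratio divides the sphere-treated by the epiboly-treated mean after adding 5 to each, which shrinks the ratios of genes with low values. A gene was called higher or lower when its limma-moderated p, adjusted by Benjamini-Hochberg over all 13274 genes, was under 0.05. UQN means are not scaled to transcript length, so levels are compared only within a gene. Members named outside the ranking rule and the textbook list described under the processing were chosen after their values were seen.

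Depth is unknown, and the totals of the group means lie between 15311014 and 21048013. The median SE was taken over records with a mean of at least 100 in the group. At shield it was 2.46% of the mean for the epiboly-treated group, the lowest of the 6. For the sphere-treated group it was 5.18%, the highest. Marker lists differed between the groups in ways that run beside the carrier results. Of all genes 40.3% were called at shield, 1.99% at tailbud and 14.7% at 7-somite. At shield, 5 of 5 maternal transcripts were lower in sphere-treated embryos (summed means 12010 epiboly-treated and 4588 sphere-treated) and 5 of 6 epidermis and ionocyte markers were higher (94606 and 133169). Also lower were 2 of 4 notochord markers, 1 of 4 hatching gland markers and 1 of 8 low-oxygen response genes. Of 4 pronephros markers 1 was higher and 1 lower, and of 6 yolk syncytial layer markers 3 were higher and 3 lower. At tailbud 3 of 4 pronephros markers were lower (summed means 3587 and 1394), as were 3 of 4 hatching gland and 2 of 4 notochord markers. Higher there were 2 of 6 epidermis and ionocyte markers and 1 of 8 low-oxygen response genes. Lower at 7-somite were 3 of 4 hatching gland, 2 of 4 notochord and 1 of 4 pronephros markers, and 2 of 6 epidermis and ionocyte markers were higher. At 7-somite, 5 of 8 low-oxygen response genes were higher and 1 lower (summed means 3206 and 7382), both measured blood markers were lower (1330 and 235), and yolk syncytial layer markers summed to 24332 and 46016, with 1 of 6 called. Their part in the carrier results was not tested. Because whole embryos were measured, a lower value from fewer cells of a type cannot be told apart from less RNA per cell.

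SLC proteins are numbered by sequence family. Some let their substrate flow down its own gradient, as the GLUT sugar carriers (SLC2) do. Others couple it to sodium, protons or an exchanged ion, as the SNAT amino acid carriers (SLC38) and the sodium-proton exchangers (SLC9) do. Heteromeric amino acid carriers pair a light chain (SLC7) with a heavy chain (SLC3) that brings it to the plasma membrane. Most SLC25 members, which form the mitochondrial class here, serve the mitochondrial inner membrane. The early zebrafish embryo feeds on its yolk through the yolk syncytial layer, a nucleated layer at the yolk surface that expresses many carriers and lipoproteins.

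The onset comparison at shield stage set embryos blocked from sphere stage against embryos blocked from 30% epiboly. With 1 sample listed per group, a difference in developmental age between the groups of a stage cannot be told apart from one of treatment onset. The shield comparison called 40 members higher and 45 lower in sphere-treated embryos. That is 45.9% of members, beside 40.3% of all genes (20.5% higher and 19.9% lower), so the share of carriers that differed was near the background. The share was 43.3% for amino acid, 41.7% for ion and pH, 41.7% for mitochondrial, 54.5% for metal and 57.1% for sugar carriers. Smaller classes ran from 0% to 100%. Among families, SLC9 and SLC27 had 5 of 5 called, SLC7 2 of 10, SLC4 1 of 7 and SLC35 0 of 5. The median log2 ratio was -0.03 for the members and 0.01 for all genes. Counted by the size of the onset log2 ratio alone, 5 members were at least 2-fold higher (2.92% of all genes) and 8 at least 2-fold lower (2.83% of all genes). The authors' deposited table marks 30 members at shield under its heading of a 50% change, or 16.2% beside 14.4% of all genes. With each gene's own variance and no moderation, the test called 7 higher and 9 lower, each gene then resting on 4 degrees of freedom. Of the 8 genes ranked highest or lowest here, it kept slc27a2a.

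**Figure D1:**
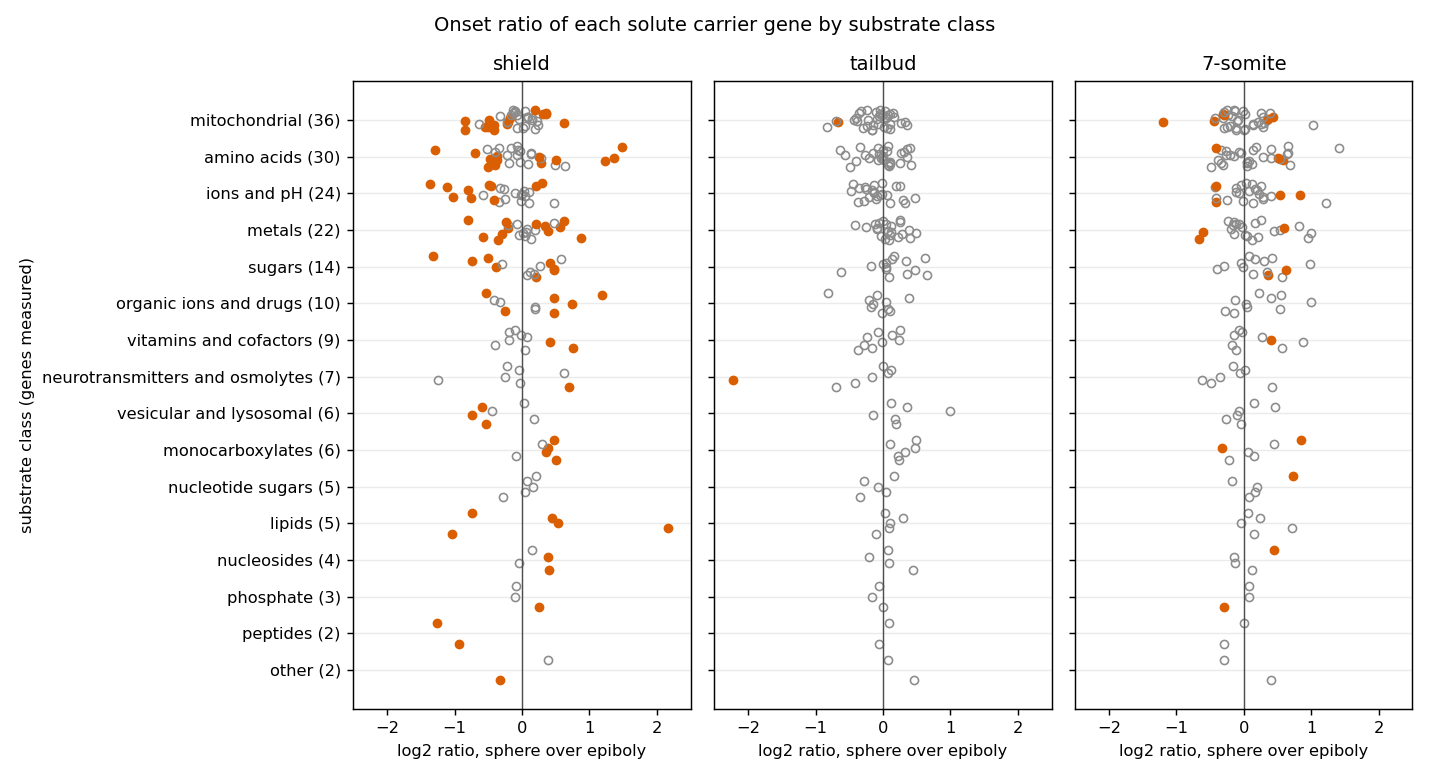
Each point is 1 of the 185 solute carrier genes, placed by its onset log2 ratio (x axis, sphere-treated over epiboly-treated) in rows by substrate class, for the 3 harvest stages. Filled points passed adjusted p 0.05: 85 at shield, 2 at tailbud and 24 at 7-somite.

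SLC27 proteins take up fatty acids or activate them to acyl-CoA; SLC27A2 is known for very long chains. All 5 measured members were called at shield, 3 higher and 2 lower, beside 40.3% of all genes. slc27a2a stood at 42 ± 4.18 and 206 ± 53.4 at shield, at 1108 ± 89.7 and 1178 ± 329 at tailbud, and at 1677 ± 128 and 2765 ± 589 at 7-somite. It was higher in sphere-treated embryos at shield, the highest onset ratio of any member called there (log2 ratio 2.17, SE 0.32, limma adjusted p = 0.013), while its tailbud means differed by less than their SEs. slc27a2b (133 ± 6.74 and 194 ± 17.8) and slc27a4 (311 ± 15.4 and 428 ± 19.2) were also higher at shield, with log2 ratios of 0.53 and 0.45. slc27a1a (799 ± 42.2 and 387 ± 82.9) and slc27a6 (191 ± 6.98 and 112 ± 14.4) were lower. All 6 yolk syncytial layer markers were called at shield too, 3 higher and 3 lower, with summed means of 5279 and 6062. The lipoprotein genes apoa1a (558 ± 87.3 and 2332 ± 451) and apobb.1 (434 ± 25.8 and 985 ± 170) were higher, and the layer's regulator mxtx1 was lower (1432 ± 49.2 and 749 ± 96.1). Their part in the SLC27 values was not tested.

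Among the 30 genes of the amino acid class 6 were higher and 7 lower at shield. The heavy-chain gene slc3a2a had means of 289 ± 36.1 and 756 ± 109 at shield, 1474 ± 213 and 1287 ± 111 at tailbud, and 1134 ± 50 and 1499 ± 230 at 7-somite. It was higher in sphere-treated embryos at shield (log2 ratio 1.37, limma adjusted p = 0.014) and was not called at the later stages. Its partner light chain slc7a7, which exports cationic amino acids in exchange for neutral ones, had means of 11 ± 2.4 and 40 ± 8.95 at shield, 155 ± 23.9 and 121 ± 13.6 at tailbud, and 107 ± 4.91 and 122 ± 28.9 at 7-somite. Its shield log2 ratio was 1.49 (limma adjusted p = 0.017). The glutamine carrier gene slc38a5a rose from 24 ± 4 to 63 ± 13.2 at shield (log2 ratio 1.23), and its duplicate slc38a5b from 1600 ± 30.4 to 2287 ± 97.5 (0.51). The second heavy-chain gene slc3a2b (0.25) and slc38a2, which encodes the SNAT2 carrier (0.28), were higher by less.

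slc7a4, a gene related to the cationic amino acid carriers, had shield means of 122 ± 4.49 and 47 ± 12.8 (log2 ratio -1.29, limma adjusted p = 0.021) and lay between 4 and 6 in all later groups. slc43a3b fell from 844 ± 5.04 to 520 ± 70.5, slc43a1a (the LAT3 carrier of large neutral amino acids) from 6598 ± 54 to 5106 ± 219, and slc38a7 from 2545 ± 17.9 to 1829 ± 126. slc1a2b, which encodes a glutamate carrier best known from glia, fell from 93 ± 3.79 to 64 ± 6.93. At tailbud it stood at 30 ± 2.6 and 20 ± 0.882 and at 7-somite at 123 ± 11.7 and 86 ± 6.12, and its log2 ratio of -0.49 did not pass at either stage (limma adjusted p = 0.13, then 0.059). slc7a5, a light chain for large neutral amino acids, had shield means of 173 ± 6.36 and 119 ± 30.4 and did not pass.

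Of the 24 ion and pH carriers 8 were lower at shield and 2 higher, or 8 and 1 with either other scaling, where slc9a2 did not pass. Every one of the 5 measured sodium-proton exchangers was called, beside 40.3% of all genes. slc9a7, whose product works in the Golgi, had shield means of 716 ± 11.7 and 274 ± 74.6, then 184 ± 16.7 and 133 ± 13.1 at tailbud and 186 ± 31.2 and 202 ± 14.1 at 7-somite. Its shield log2 ratio of -1.37 was the lowest of any member called at shield (limma adjusted p = 0.022). The plasma-membrane exchanger slc9a1a and the endosomal slc9a6a fell too (log2 ratios -0.46 and -0.49), while slc9a2 and slc9a8 were slightly higher (0.21 and 0.30). The sodium-calcium exchanger gene slc8a1b fell from 178 ± 5.84 to 80 ± 12.4, and 3 of the 8 cation-chloride cotransporter genes fell, with slc12a9 the furthest (271 ± 14.2 to 131 ± 16.2). The anion exchanger gene slc4a2b had 931 ± 15.6 and 533 ± 114 (log2 ratio -0.80, limma adjusted p = 0.047), a call lost with a pseudocount of 1.

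Of the 6 vesicular and lysosomal carriers 2 had a shield log2 ratio above 0, and 0 were called higher. Beside 19.9% of all genes, 3 of these 6 and 2 of 2 peptide carriers were lower at shield. These were the lysosomal sialic acid carrier slc17a5 (383 ± 2.33 to 262 ± 30.2), the vesicular nucleotide carrier slc17a9b (824 ± 20.4 to 490 ± 38.4), the lysosomal cationic amino acid carrier slc66a1 (261 ± 11.4 to 172 ± 7.8), and the peptide carriers slc15a2 and slc15a4. slc15a4, a lysosomal peptide and histidine carrier, had 146 ± 18.3 and 58 ± 15.4 (log2 ratio -1.26, limma adjusted p = 0.028). slc15a2 fell from 166 ± 4.84 to 85 ± 10.4 and was at 98 ± 2.6 and 94 ± 25.5 by tailbud. Maternal transcripts fell at the same stage, as given above, and their part in these values was not tested.

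Monocarboxylate carriers (SLC16) exchange lactate, pyruvate and related substrates. Of the 6 measured, 4 were higher at shield, beside 20.5% of all genes, and the other 2, slc16a6b and slc16a13, did not pass. The means were 7524 ± 182 and 9560 ± 392 for slc16a1b (MCT1 type), 1171 ± 5.81 and 1658 ± 125 for slc16a10 (aromatic amino acids and thyroid hormone), and 1237 ± 13.3 and 1613 ± 86.2 for slc16a6a, a ketone body carrier of the zebrafish liver. For slc16a9b they were 681 ± 22.5 and 949 ± 97.8. The log2 ratios of those 4 lay between 0.35 and 0.50, and the same split of 4 and 0 was found with both other scalings. Without moderation none of the 4 shield calls was kept.

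Sugar carriers split evenly at shield, 4 higher and 4 lower of 14. slc2a8, an intracellular hexose carrier, was higher (1786 ± 16.5 and 2482 ± 167), as were the sugar phosphate carrier slc37a1 (238 ± 15.6 and 332 ± 8.01) and slc45a4b (74 ± 0.882 and 100 ± 6.35). slc2a10 was higher by 0.21 on the log2 scale, a call lost with both other scalings. Both copies of the sodium-dependent multivitamin carrier, which belong to the mostly sugar-carrying SLC5 family, fell: slc5a6a from 117 ± 7.84 to 81 ± 5.24 and slc5a6b from 120 ± 3.18 to 45 ± 13.5. slc5a6b had the lower log2 ratio of the pair, -1.32 (limma adjusted p = 0.025), and was at 35 ± 2.03 and 40 ± 12.4 by tailbud. The sugar efflux carrier gene slc50a1 fell from 107 ± 12.2 to 62 ± 9.21 and slc37a2 from 7113 ± 71.7 to 5461 ± 251.

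Metal carriers also moved both ways at shield, with 6 of 22 higher and 6 lower. Among zinc genes, the exporter copy slc30a1b (132 ± 11.6 and 246 ± 22.7) and the SLC39 genes slc39a3 (75 ± 2.4 and 113 ± 4.37), slc39a5 (1602 ± 27.1 and 2025 ± 110) and slc39a7 (1632 ± 16.7 and 1888 ± 31.1) were higher. The zinc carrier genes slc30a4, slc30a7 and slc39a13 were lower, with log2 ratios of -0.58, -0.29 and -0.21. The copper importer slc31a1 rose from 2232 ± 26.9 to 2927 ± 159, and the iron importer slc11a2 fell from 1162 ± 10.4 to 912 ± 40. slc39a6, a zinc importer required in zebrafish for migration of cells of the gastrula organizer, had shield means of 1181 ± 27.7 and 1020 ± 36.6 (limma adjusted p = 0.058).

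Among the 36 SLC25 genes of the mitochondrial class 5 were higher and 10 lower at shield. The split was 3 and 10 with median-of-ratios scaling and 2 and 12 with equal totals. The ADP-ATP exchanger slc25a5 (38760 ± 415 and 44159 ± 971) and the phosphate carrier slc25a3b (7953 ± 127 and 9858 ± 272) were higher, by 0.19 and 0.31 on the log2 scale. The slc25a5 call was lost with both other scalings. The lower genes included the oxoglutarate carrier slc25a11 (1088 ± 19.4 to 600 ± 124), the S-adenosylmethionine carrier slc25a26 (172 ± 5 to 93 ± 18.7), the citrate carrier slc25a1a (896 ± 22.5 to 668 ± 36.3) and the acylcarnitine carrier slc25a20 (1024 ± 16 to 875 ± 25.8).

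Of the remaining classes at shield, 4 of 10 carriers of organic ions and drugs were higher and 2 lower. slc47a1, an extrusion carrier for organic cations and drugs, had means of 155 ± 8.72 and 361 ± 70.2 (log2 ratio 1.19), slc22a2 of 138 ± 6.43 and 234 ± 38.8, and the carnitine carrier slc22a5 of 2183 ± 89.2 and 3055 ± 181. The ascorbate carrier slc23a1 (39 ± 0.882 and 69 ± 7), the nucleoside carriers slc28a1 and slc29a2, the phosphate carrier slc20a1b and the GABA carrier slc6a11a (13 ± 1.2 and 24 ± 0.882) were also higher, the slc20a1b call being lost with equal totals. The 5 nucleotide sugar carriers did not pass in either direction, with limma adjusted p from 0.092 to 0.74.

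**Figure D2:**
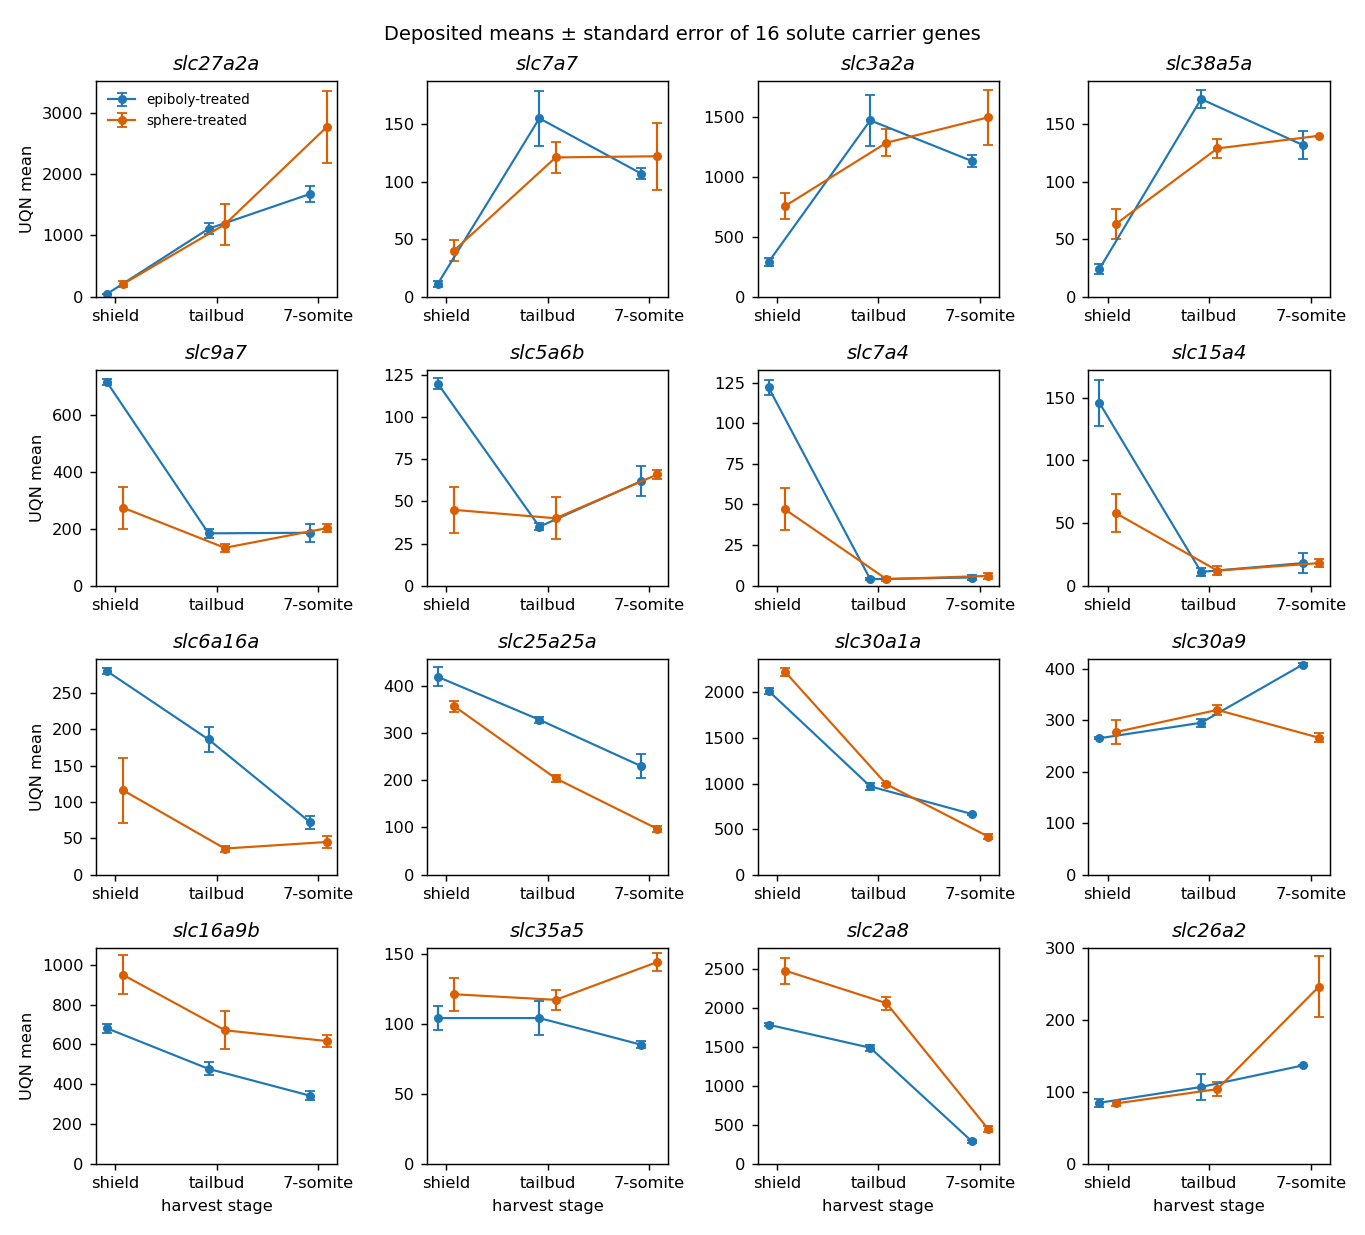
Deposited UQN means with SE bars (y axis, linear from 0) of 16 carrier genes ranked highest or lowest among the onset calls, against harvest stage (x axis), for epiboly-treated and sphere-treated embryos. The 8 genes of the upper rows were called at shield, for example slc27a2a at 42 and 206 and slc9a7 at 716 and 274. None of these genes was called at tailbud.

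At tailbud stage far fewer carriers differed between the onsets, though some marker lists still did, as given above. The comparison called 0 members higher and 2 lower by the limma-moderated test, 1.08% of members beside 1.99% of all genes (0.249% higher and 1.74% lower). At an unadjusted p under 0.05 there were 14 members above and 18 below, and moderation with a trend on level called 1 higher and 5 lower. slc6a16a, an orphan member of the neurotransmitter carrier family, had 280 ± 3.79 and 116 ± 44.4 at shield, 186 ± 17.6 and 36 ± 4.16 at tailbud, and 72 ± 8.95 and 45 ± 8.21 at 7-somite. It was lower in sphere-treated embryos at tailbud (log2 ratio -2.22, SE 0.17, limma adjusted p = 0.0016), and its lower means at shield and 7-somite did not pass (0.062 and 0.11). slc25a25a, which encodes a calcium-regulated carrier exchanging ATP-magnesium for phosphate in mitochondria, had 328 ± 6.17 and 204 ± 7.05 at tailbud (log2 ratio -0.67, limma adjusted p = 0.013). Its duplicate slc25a25b stood at 528 ± 28.7 and 323 ± 40.2 and did not pass (0.12). Without moderation neither tailbud call was kept. The authors' deposited table marks 3 members at tailbud, slc25a25a, slc25a25b and slc7a3b, or 1.62% beside 1.63% of all genes.

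At 7-somite stage 13 members were higher and 11 lower, 13% of members beside 14.7% of all genes (5.91% higher and 8.81% lower). Scaling to equal totals gave 18 higher and 6 lower, and median-of-ratios scaling 14 and 8, so the balance of directions depended on scaling. The median log2 ratio was 0.04 for the members and -0.02 for all genes. Counted by the size of the onset log2 ratio alone, 4 members were at least 2-fold higher (1.12% of all genes) and 1 at least 2-fold lower (0.904% of all genes). The authors' deposited table marks slc25a25a and slc2a8, or 1.08% of members beside 1.36% of all genes. Without moderation 9 of the 24 calls were kept, slc16a9b, slc35a5, slc30a1a and slc30a9 among them.

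The higher members at 7-somite were led by slc16a9b, a monocarboxylate-type carrier that handles carnitine in humans. Its means were 342 ± 22.8 and 617 ± 32.1 (log2 ratio 0.84, limma adjusted p = 0.011), after tailbud means of 477 ± 32.5 and 671 ± 95.3 that did not pass. The sulfate carrier slc26a2 stood at 137 ± 0.333 and 247 ± 42.8 and slc35a5 of the Golgi nucleotide sugar family at 85 ± 2.33 and 144 ± 6.44 (0.73 on the log2 scale, limma adjusted p = 0.0074). slc2a8 had means of 288 ± 19.4 and 447 ± 39.2, and its tailbud log2 ratio of 0.47 did not pass (limma adjusted p = 0.068). The glutamine carrier slc38a5b (2680 ± 69.6 and 4004 ± 180), the zinc carrier slc39a13 (463 ± 9.21 and 701 ± 51.8), slc44a1a of the choline carrier family (1023 ± 51.2 and 1351 ± 41.3) and the folate carrier of mitochondria slc25a32a (509 ± 9.49 and 654 ± 31.3) were higher as well. Of 8 low-oxygen response genes 5 were higher in the same embryos, among them egln3 (90 ± 30.6 and 2223 ± 400) and ldha (148 ± 13.4 and 610 ± 79.4). Another, pfkfb4b, was lower (1740 ± 145 and 1209 ± 68.4), and the rest did not pass. The part of these genes in the carrier results was not tested.

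The lower members at 7-somite included 4 mitochondrial carriers and 2 zinc exporters. slc25a25a had 230 ± 26.1 and 97 ± 6.08, the lowest ratio of the stage (log2 ratio -1.20, limma adjusted p = 0.0095), after 419 ± 19.9 and 357 ± 11.6 at shield. slc25a25b was lower too (499 ± 27.8 and 364 ± 17.3, log2 ratio -0.45), a call lost with equal totals. The plasma-membrane zinc exporter slc30a1a had 2018 ± 29.3 and 2229 ± 42.6 at shield, 970 ± 38.6 and 992 ± 16.3 at tailbud, and 666 ± 5.77 and 419 ± 28.9 at 7-somite, where it was lower (log2 ratio -0.66, limma adjusted p = 0.014). slc30a9, a zinc carrier of mitochondria, had 265 ± 1.53 and 277 ± 23.7, then 295 ± 7.33 and 320 ± 10.4, then 408 ± 2.67 and 266 ± 9.24, lower at the last stage (log2 ratio -0.61, limma adjusted p = 0.0091). The sodium-potassium-chloride cotransporter slc12a2 stood at 1101 ± 13.3 and 830 ± 36.9 and the sodium-proton exchanger slc9a2 at 108 ± 4.37 and 80 ± 2.91. The sphere-treated over epiboly-treated ratio of the slc12a2 means was 0.787 at shield, 0.772 at tailbud and 0.754 at 7-somite. Only the last was called, so its call does not mark a difference limited to that stage.

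Over the 3 stages 102 members were called in at least 1 onset comparison and 83 in none, and 0 were called in the same direction at all 3. Of all genes, 40.3% were called at shield, 1.99% at tailbud and 14.7% at 7-somite. The matching shares over all genes are not given here, nor are those for calls at both shield and 7-somite. Of the 102, 8 were called at both shield and 7-somite, 3 in the same direction and 5 in opposite ones. slc16a9b, slc2a8 and slc38a5b were higher at both. slc16a6a, slc20a1b, slc25a3b and slc9a2 were higher at shield and lower at 7-somite, and slc39a13 was lower and then higher. Of these, slc16a6a and slc20a1b lost their 7-somite calls and slc9a2 its shield call with both other scalings. With equal totals slc25a3b lost its 7-somite call and slc20a1b its shield call too. Without moderation slc25a3b and slc38a5b kept both calls and slc16a9b its 7-somite call, while the rest of these calls were lost. A fit of onset over all 6 groups, blocked by harvest stage, called 0 members by limma, with 16 at an unadjusted p under 0.05, and 0% of all genes. Its smallest limma adjusted p among members was 0.64. The 6 means leave it few residual degrees of freedom, and stages are not replicates, so its lack of calls says little.

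Whether the onset effect itself changed between stages was tested as a difference of log2 ratios. From shield to tailbud the ratio rose in 19 members and fell in 16, or 18.9% beside 20% of all genes (8.02% and 12%). The largest falls were those of slc27a2a (-2.08, SE 0.50, limma adjusted p = 0.021), slc7a7 (-1.84, limma adjusted p = 0.014) and slc38a5a (-1.63, limma adjusted p = 0.011), each higher at shield, with tailbud log2 ratios of 0.09, -0.34 and -0.40 that did not pass (limma adjusted p = 0.93, 0.53 and 0.17). From tailbud to 7-somite it rose in 2 and fell in 2, or 2.16% beside 2.03% (1.31% and 0.716%): slc6a16a (1.60, limma adjusted p = 0.033) and slc38a5b (0.56) upward, slc30a9 (-0.72) and slc30a1a (-0.69) downward.

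The steps between harvest stages show how the carriers changed as gastrulation ended. The median of all genes shifted from shield to tailbud by -0.19 under the later onset and by -0.23 under the earlier one, and median-of-ratios scaling takes this shift to 0.00. Against it the member medians were -0.44 and -0.35. In epiboly-treated embryos 54 members rose and 97 fell, 81.6% of members beside 80.6% of all genes (32.6% and 48%). In sphere-treated embryos 34 rose and 87 fell, 65.4% beside 63.3% (20% and 43.3%). The splits depended on scaling: 67 and 87 with median-of-ratios and 69 and 79 with equal totals in epiboly-treated embryos, and 54 and 69, then 62 and 62, in sphere-treated embryos. In both onsets 30 members rose (16.2% beside 18.7% of all genes) and 79 fell (42.7% beside 39.2%).

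With the deposited scaling, at least 1 member of each of the 16 classes fell in both onsets. Of the 24 ion and pH carriers 11 fell in both and 3 rose, and of the 30 amino acid carriers 15 fell and 9 rose. Of the 36 genes of the mitochondrial class 16 fell in both and 1, slc25a36a, rose. The mitochondrial split depended on scaling. In epiboly-treated embryos 10 of these carriers rose and 18 fell, beside 15 and 15 with median-of-ratios scaling and 16 and 14 with equal totals. In sphere-treated embryos 2 rose and 17 fell, beside 9 and 10, then 10 and 10. In sphere-treated embryos the ion and pH carriers split 3 and 12, beside 4 and 9, then 5 and 9, and the amino acid carriers 9 and 16, beside 10 and 15, then 12 and 14. slc7a8a, a light chain for neutral amino acids, went from 14522 ± 266 to 3571 ± 843 and 929 ± 43.7 over the 3 stages in epiboly-treated embryos, and from 13692 ± 879 to 3744 ± 203 and 1469 ± 326 in sphere-treated embryos. The facilitative sugar carrier slc2a12 went from 4280 ± 109 to 644 ± 38.2 and 68 ± 2.65, and from 4862 ± 75.1 to 823 ± 181 and 75 ± 0.882, a fall at both steps and in both onsets. slc7a4, slc8a1b and slc15a4 fell to 13 or less by tailbud, with log2 changes of -3.82, -3.35 and -3.24 in epiboly-treated embryos. These changes share the shield means with the onset ratios above.

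Genes that rose from shield to tailbud were led in epiboly-treated embryos by slc27a2a (log2 change 4.57), slc23a3 (4.20) and slc7a7 (3.32). slc23a3, of the ascorbate carrier family, was listed at 1 ± 0.333 and 3 ± 0.667 at shield, 105 ± 8.89 and 104 ± 39.3 at tailbud, and 114 ± 10.7 and 213 ± 79.7 at 7-somite. In sphere-treated embryos the 3 highest were slc23a3 (3.77), the sugar carrier slc2a11b (2.89) and the potassium-chloride cotransporter slc12a4 (2.89). slc12a4 went from 90 ± 6.98 to 844 ± 23.3 in epiboly-treated and from 89 ± 14.8 to 693 ± 64.1 in sphere-treated embryos, a rise in both with no onset call at any stage. The folate carrier slc19a1 rose in both as well (99 ± 2.4 to 231 ± 9.16 and 102 ± 3.28 to 178 ± 16.8).

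From tailbud to 7-somite 35 members rose and 39 fell in epiboly-treated embryos, 40% beside 44% of all genes (21.6% and 22.4%). In sphere-treated embryos 42 rose and 43 fell, 45.9% beside 50.5% (24% and 26.5%), or 55 and 31 with equal totals. In both onsets 25 rose (13.5% beside 16.4% of all genes) and 27 fell (14.6% beside 16.6%). The hexose carrier slc2a2 (GLUT2 type, known from liver and pancreas) went from 18 ± 1.45 at shield to 89 ± 5.36 and 318 ± 30.1 in epiboly-treated and from 20 ± 1 to 56 ± 26.6 and 405 ± 126 in sphere-treated embryos. The peptide carrier slc15a2 and the glutamate carrier slc1a2b, which had fallen or stood low at tailbud, rose by 1.39 and 1.87 on the log2 scale in epiboly-treated embryos. In sphere-treated embryos the GABA carrier slc6a11a rose from 37 ± 6.17 to 164 ± 7.13 and the glucose-6-phosphate carrier slc37a4a from 61 ± 20.9 to 248 ± 104, the latter a call lost without moderation, as was that of slc2a2. Falls were led by slc2a12, slc3a2b (2471 ± 495 to 460 ± 40.5 and 3156 ± 476 to 563 ± 25.6), slc2a8 and slc9a2. Of the 6 monocarboxylate carriers 4 fell under the later onset and 3 under the earlier one, and the rest did not pass.

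**Figure D3:**
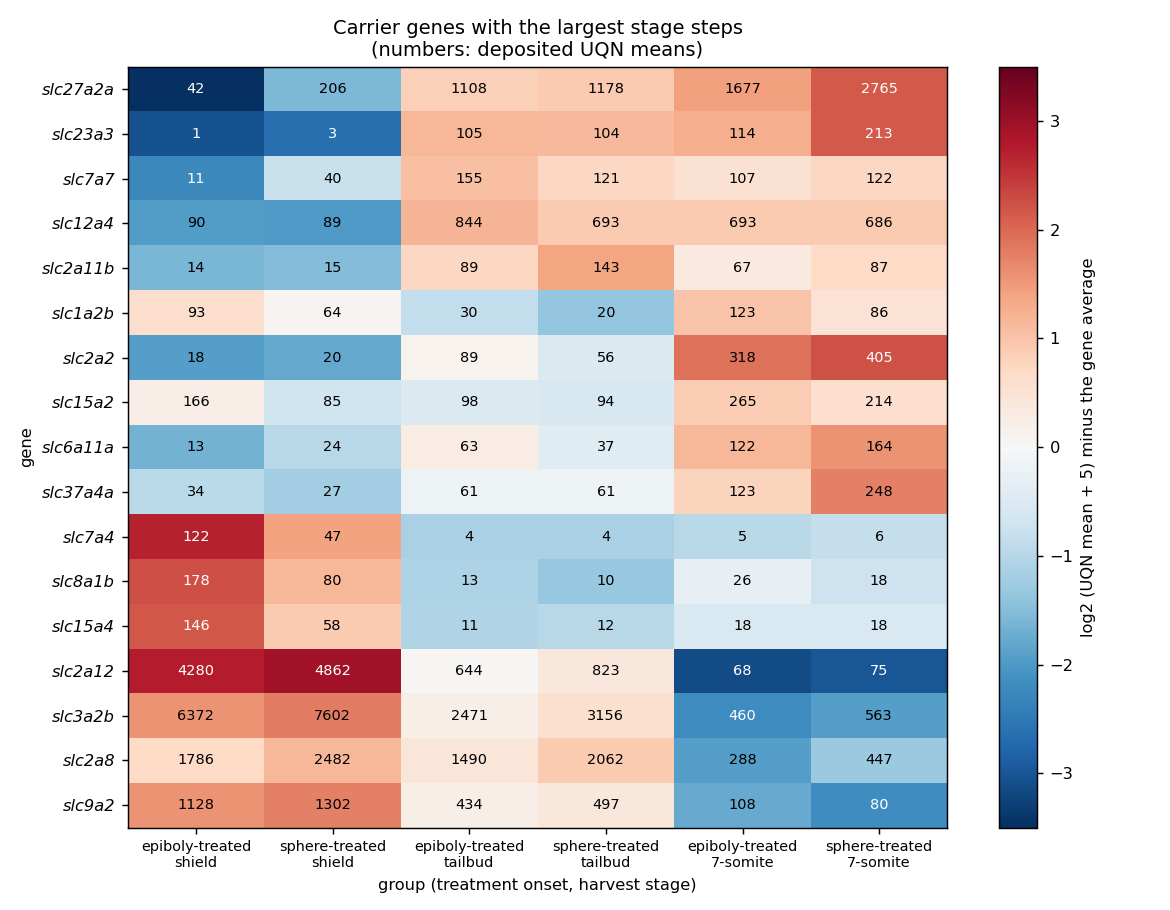
Deposited UQN means (numbers in cells) of the 17 carrier genes with the largest called stage steps, for the 6 groups in columns; colour is log2 of (mean + 5) minus the gene's average over the groups. slc27a2a and slc23a3 go from lowest at shield to highest at 7-somite, and slc2a12 goes the other way, in both onsets.

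Zebrafish keep many carrier genes as duplicates, and 17 pairs of a and b copies were measured, a set looked at after values were seen. Near-identical copies may share reads, so their separate values are uncertain. From shield to tailbud the copies were called in opposite directions in 8 pairs of epiboly-treated embryos and 5 of sphere-treated ones, and in the same direction in 5 and 4. Of all genes 32.6% rose and 48% fell at this step in epiboly-treated embryos, and 20% rose and 43.3% fell in sphere-treated ones. Some unrelated genes paired at random would thus also be called in opposite directions, and the pairs were not set against such a background. With median-of-ratios scaling the opposite pairs numbered 7 and 3, and with equal totals 6 and 3. The pairs slc3a2 and slc30a1 were opposite in both onsets with all 3 scalings. slc3a2a rose from 289 ± 36.1 to 1474 ± 213 while slc3a2b fell from 6372 ± 129 to 2471 ± 495 in epiboly-treated embryos, and in sphere-treated embryos the first rose from 756 ± 109 to 1287 ± 111 and the second fell from 7602 ± 191 to 3156 ± 476. slc30a1a fell from 2018 ± 29.3 to 970 ± 38.6 and slc30a1b rose from 132 ± 11.6 to 515 ± 204 in epiboly-treated embryos, with 2229 ± 42.6 to 992 ± 16.3 and 246 ± 22.7 to 680 ± 69.5 in sphere-treated ones.

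Other pairs showed the same split in part. The anion exchanger copies slc4a2a and slc4a2b went from 143 ± 4.67 to 186 ± 13.3 and from 931 ± 15.6 to 141 ± 6.93 in epiboly-treated embryos. In sphere-treated embryos slc4a2a did not pass (146 ± 6.66 and 132 ± 28.9). slc43a2a rose in both onsets, while slc43a2b fell in sphere-treated embryos (limma adjusted p = 0.049, lost with both other scalings) and did not pass in epiboly-treated ones (0.62). In the onset comparisons no pair was called in opposite directions: 4 pairs were called in the same direction at shield and 1 at 7-somite. Among all genes 20.5% were higher and 19.9% lower at shield, 0.249% and 1.74% at tailbud, and 5.91% and 8.81% at 7-somite. These pair counts were not set against unrelated genes paired at random either.

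**Figure D4:**
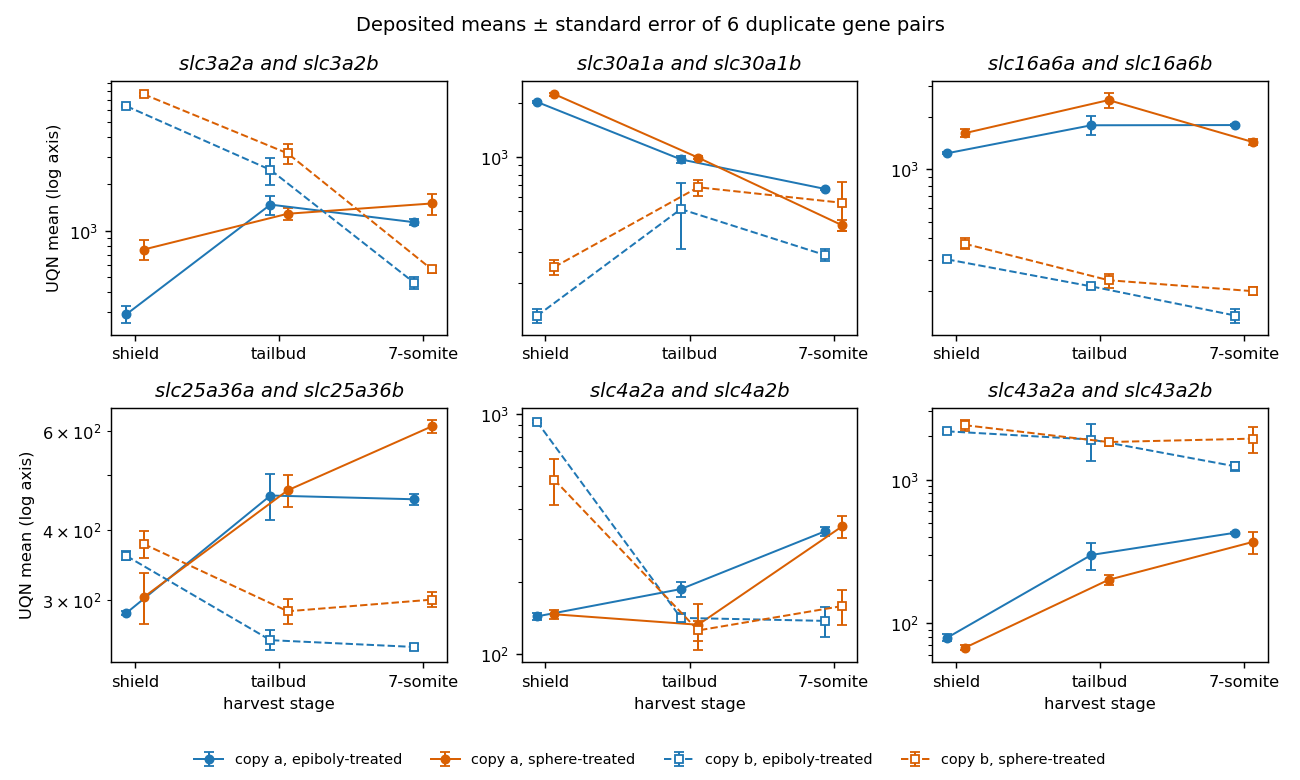
Deposited UQN means with SE bars (y axis, log scale) of 6 duplicate pairs against harvest stage (x axis); filled circles and solid lines are copy a, open squares and dashed lines copy b, and colours give the treatment onset. Between shield and tailbud slc3a2a rises as slc3a2b falls, and slc30a1b rises as slc30a1a falls, in both onsets.

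The deposited SEs were uneven between groups, a pattern looked at after values were seen. Among members with means of at least 50, an SE of at least 15% of the mean was found for 1 of 172 in epiboly-treated and 26 of 173 in sphere-treated shield embryos, for 29 of 173 and 18 of 172 at tailbud, and for 8 of 174 and 33 of 175 at 7-somite. In the epiboly-treated tailbud group this is 16.8% of members beside 5.96% of all genes, and in the sphere-treated 7-somite group 18.9% beside 6.28%. In total 22 of 171 members (12.9%) passed the limit in both of these groups, beside 278 of 12119 genes (2.29%), a difference that was not tested. They included slc39a5 (1035 ± 260 and 653 ± 143), slc30a1b (515 ± 204 and 558 ± 168), slc7a6 (195 ± 99.2 and 239 ± 110), slc43a2b (1901 ± 556 and 1928 ± 408), the sulfate carriers slc13a4 and slc26a1, and slc7a8a.

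These 22 carriers also bear on the 7-somite comparison. The onset ratio at 7-somite was above 0 in 20 of them, with a median of 0.60, and 1 of them, slc26a2, was called. Over all 278 genes with this spread it was above 0 in 255, with a median of 0.65. slc7a6 had the highest onset ratio of any member at this stage, 1.41, from 87 ± 4.84 and 239 ± 110, and did not pass (limma adjusted p = 0.098). One high value among 3 raises both a mean and its SE, so the ratio and the spread are not independent measures. The SEs of the 6 yolk syncytial layer markers ran from 14.3% to 25% of the mean in epiboly-treated tailbud and from 15.8% to 66.7% in sphere-treated 7-somite embryos. They were wide for some of these markers in the other groups too. At shield they ran from 2.91% to 16.7% in epiboly-treated and from 8.18% to 56.7% in sphere-treated embryos, in sphere-treated tailbud embryos from 5.42% to 38.5%, and in epiboly-treated 7-somite embryos from 3.62% to 29.1%. The regulator mxtx2 had the widest of them in each of these groups but epiboly-treated shield embryos, where apoa4b.1 did (mean 2 ± 0.333). No minimum mean was set for these markers, and mxtx2 was at 4 ± 1 and 3 ± 1.16 at tailbud. At 7-somite it was at 5 ± 1.45 and 1 ± 0.667, so these widest percentages rest on very low means. Without mxtx2 the widest were 20.6% (hnf4a) in epiboly-treated tailbud and 38.8% (apobb.1) in sphere-treated 7-somite embryos. Wide SEs were not limited to yolk markers. In sphere-treated 7-somite embryos the blood marker tal1 was at 80 ± 26.9 and the notochord marker emilin3a at 133 ± 54.9. The epidermis marker krt4 had a narrow SE there (129379 ± 4370). The part of yolk or any other tissue in the carrier values was not tested.

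**Figure D5:**
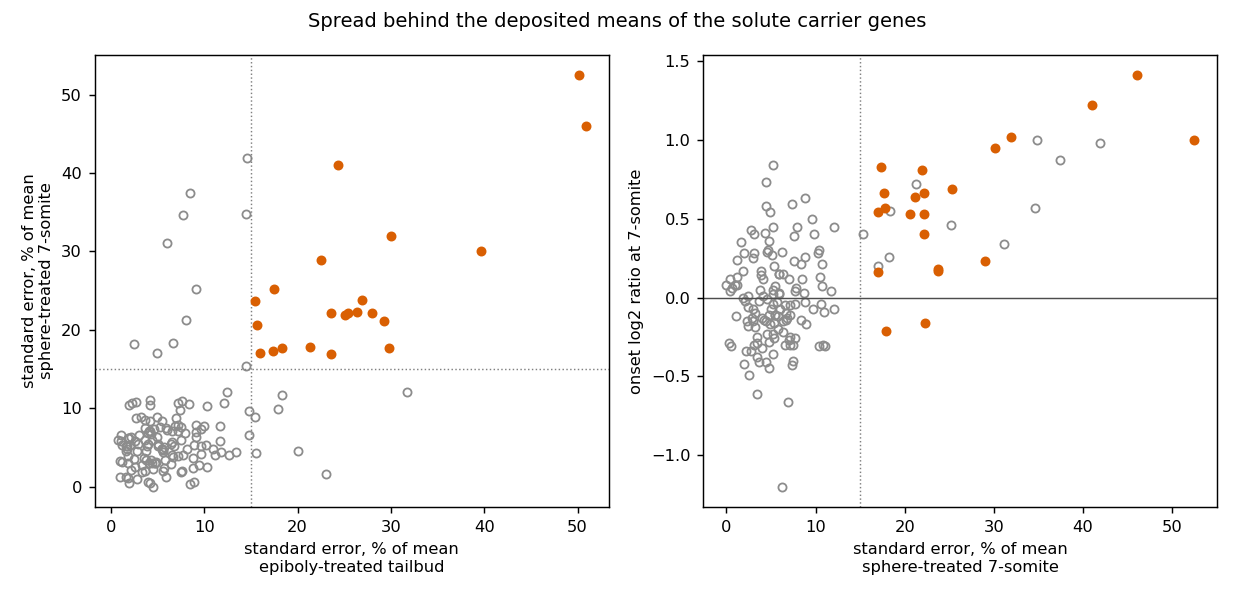
Left, SE as a percentage of the mean in epiboly-treated tailbud (x axis) and sphere-treated 7-somite embryos (y axis) for the 171 carrier genes with means of at least 50 in both; right, onset log2 ratio at 7-somite (y axis) against the latter. Dotted lines mark 15%, and the 22 filled points are past it in both groups; 20 of them lie above 0 on the right.

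Well-known carriers were covered by a textbook list of 71 genes, of which 41 were measured. At shield 11 of these were higher and 8 lower, 46.3% beside 40.3% of all genes. At 7-somite 1 was higher and 4 lower, 12.2% beside 14.7%. At tailbud 0 passed the limma-moderated test, with 5 at an unadjusted p under 0.05, beside 1.99% of all genes called. From shield to tailbud 13 rose and 23 fell in epiboly-treated embryos, 87.8% beside 80.6%, and in sphere-treated embryos 8 rose and 23 fell, 75.6% beside 63.3%. The mitochondrial iron carrier slc25a37, needed for haem synthesis in zebrafish blood, had shield means of 252 ± 11.4 and 200 ± 19.1 and 7-somite means of 136 ± 18.7 and 120 ± 5.84, and passed at no stage, while the blood markers tal1 (610 ± 47.8 and 80 ± 26.9) and lmo2 (720 ± 69.3 and 155 ± 28.3) were lower at 7-somite. The glycine carrier slc6a9 (116 ± 30.9 and 103 ± 22.9 at 7-somite) passed at no stage.

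Other transporters were counted beside the 45.9% of solute carriers called at shield. Of 28 ABC transporter genes, which pump substrates with ATP, 9 were higher and 4 lower (46.4%), of 9 sodium pump subunits 2 and 1 (33.3%), and of 47 carriers with symbols outside the rule 10 and 11 (44.7%). From shield to tailbud in epiboly-treated embryos 14 ABC transporters rose and 8 fell, with a median of 0.26, beside 54 and 97 of the solute carriers and a median of -0.44. In sphere-treated embryos they split 8 and 8, with a median of -0.03 beside -0.35. Of all genes 32.6% rose and 48% fell in epiboly-treated embryos (median -0.19), and 20% rose and 43.3% fell in sphere-treated ones (-0.23). Carrier splits at this step depended on scaling, and the ABC counts are given with the deposited scaling only. The difference between these lists was not tested.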

How the data were processed

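RNA of whole embryos was extracted with RNeasy columns and made into TruSeq libraries, per the labels' protocols. Per the file headers, the authors deposited UQN means rounded to whole numbers, which are scores on a normalized scale, with a standard error as a score beside each. They also deposited a ratio per stage (epiboly-treated over sphere-treated) and a call of a 50% change. The submitters' processing notes name DESeq 1.6.1 with no role. The sources used here give no aligner, counting method or build. Of 13321 records, 12182 received a symbol by gene identifier and 42 by accession from RefSeq's table for GRCz12tu, used for names only, and 1097 kept their accession. The record with the highest mean was kept per symbol, which set 47 aside. All of 11992 SEs between 0 and 5 lay on the grid of 3 whole numbers (tolerance 0.0006, 1.82% expected by chance).

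The variance of log2(mean + 5) was taken from the SEs by the delta method, with 4 degrees of freedom per comparison, and moderated with limma 3.58.1 (squeezeVar, R 4.3.3). Tests are two-sided and were tested on simulated data first. Named genes are the 4 highest and 4 lowest called per onset comparison, the 3 and 3 per stage step, the 3 largest changes of the onset effect, and called members of a textbook list. Members, classes and lists were chosen with earlier results of these data known. Alternatives were pseudocounts of 1 and 20, median-of-ratios scaling, equal totals, no moderation, a trend on level, a highest group mean of at least 300, and each stage left out of the blocked fit. Depth per sample is unknown.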

Additional observations from a re-analysis of the deposited data

Results flagged for a closer look

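The onset effect changed between stages in 6 genes singled out as the 3 largest called differences of log2 ratios (sphere-treated over epiboly-treated) per pair of stages. Some larger differences did not pass, such as 1.11 for slc6a11a and -1.06 for slc18a2 between tailbud and 7-somite. Tailbud minus shield it was -2.08 for slc27a2a, -1.84 for slc7a7 and -1.63 for slc38a5a. Minus the tailbud ratio, the 7-somite ratio of slc6a16a was higher by 1.60, and the differences were -0.72 for slc30a9 and -0.69 for slc30a1a. Without moderation of the variance the slc6a16a difference was no longer called. No group was screened for outlying samples, since the labels list 1 sample per group.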

How the results depend on the processing

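The counts of called solute carrier genes moved by more than 1.5 times under these settings. Without moderation they were 7 higher and 9 lower at shield, 0 lower at tailbud, 5 higher and 4 lower at 7-somite, and 25 higher from tailbud to 7-somite in sphere-treated embryos; 15 of the 85 shield calls, 0 of the 2 tailbud calls and 9 of the 24 7-somite calls were kept. Of the 8 genes ranked at shield it kept slc27a2a, and of the 8 at 7-somite slc16a9b, slc30a1a, slc30a9 and slc35a5. A trend on level gave 1 higher and 5 lower at tailbud and 20 higher at 7-somite. A pseudocount of 20 gave 4 lower at tailbud. Equal totals gave 6 lower at 7-somite and 62 higher from shield to tailbud in sphere-treated embryos, where median-of-ratios scaling gave 54. Among the 116 members with a highest group mean of at least 300, 27 were lower at shield, 1 higher at tailbud, 33 and 17 rose from shield to tailbud (epiboly- and sphere-treated) and 18 and 24 from tailbud to 7-somite; fewer genes are tested there. Otherwise the cause was not tested. No named gene's direction reversed in these settings, but the balance of higher and lower calls from tailbud to 7-somite turned: from 35 and 39 to 38 and 36 (median-of-ratios) and 40 and 33 (equal totals) in epiboly-treated embryos, where the median went from -0.04 to -0.02 and 0.03, and from 42 and 43 to 47 and 38 and 55 and 31 in sphere-treated ones. The stage-blocked fit called 0 members with either pseudocount and with each stage left out, which says little with so few residual degrees of freedom. No paired analysis was possible because each group has 1 sample in the labels, and for the same reason no replicate could be left out.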
